A study of Homo sapiens with 10 samples.

Results

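RET, its fusion partner CCDC6, the co-receptors GFRA1 and GFRA2 and the ligands GDNF, ARTN and NRTN were followed in TPC-1 cells, an established line from a human papillary thyroid carcinoma that is known to carry the CCDC6-RET fusion also called RET/PTC1. These 7 genes were chosen by name among the 58735 genes of the deposited tables, and all 7 were found. RNA came from cells given a vector that overexpresses PTCSC3-AS1, a long non-coding RNA (OE, n = 5), or the empty vector (EV, n = 5). All 10 libraries come from this 1 line, so every group carries the fusion. The deposited table with OE and EV replicates 1 to 3 is called the first set, and the table with replicates 4 and 5 the second set. The sources used here give neither what separates the sets nor whether replicates were separate cultures, so p-values cover a spread among libraries that may be technical. PTCSC3-AS1 is not a row of the tables, and the OE labels could not be checked against its level.

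RET is a receptor tyrosine kinase. A ligand of the GDNF family first binds a GFRA co-receptor anchored in the membrane, and the complex then brings RET molecules together so that they phosphorylate each other. GDNF prefers GFRA1, neurturin (NRTN) prefers GFRA2, and artemin (ARTN) prefers GFRA3. In the thyroid, normal RET expression is known from the calcitonin-producing C cells rather than from follicular cells. In RET/PTC1 the promoter and first exon of CCDC6, which encodes a coiled-coil protein, are joined to the RET exons that encode the kinase, and the coiled coil brings the kinases together without ligand.

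The bases on the outer sides of the known junction are shown because they define which exons of each gene the fusion keeps. The sequences are reference exons of GENCODE 29 (hg38), the last 60 bases of CCDC6 exon 1 (chr10:59906122-59906181, minus strand) and the first 60 bases of RET exon 12 (chr10:43116584-43116643, plus strand), both coding. Capitals mark the 15 bases next to the junction, and no read across it can be seen in a table of counts per gene.
CCDC6 exon 1: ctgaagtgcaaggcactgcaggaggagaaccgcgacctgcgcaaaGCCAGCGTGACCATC
RET exon 12: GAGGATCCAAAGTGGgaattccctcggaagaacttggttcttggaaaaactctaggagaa
Exon 1 made up 535 of the 5811 bases of the CCDC6 reference transcript (9.21%), and exon 12 to the last exon made up 3291 of the 5659 bases of the RET reference transcript (58.2%). A RET count therefore joins exons that the fusion keeps with exons that it lacks. A CCDC6 count likewise joins exon 1 with exons outside the fusion, which make up most of the reference length. The share of either count that came from the fusion was not measured.

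The DNA just upstream of both genes is shown because the fusion places RET kinase exons behind the CCDC6 promoter. These RefSeq sequences (GRCh38.p14) come from the 250 bases before the first listed RefSeq start. The parts that lie outside the gene are shown, 208 bases for RET (chr10:43076819-43077026, plus strand) and 150 bases for CCDC6 (chr10:59906657-59906806, minus strand). Capitals mark GGGCGG or its reverse complement CCGCCC, and matches may overlap.
RET upstream: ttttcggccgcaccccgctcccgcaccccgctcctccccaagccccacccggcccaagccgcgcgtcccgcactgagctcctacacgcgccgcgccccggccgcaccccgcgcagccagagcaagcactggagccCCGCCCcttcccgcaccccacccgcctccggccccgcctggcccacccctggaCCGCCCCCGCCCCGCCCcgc
CCDC6 upstream: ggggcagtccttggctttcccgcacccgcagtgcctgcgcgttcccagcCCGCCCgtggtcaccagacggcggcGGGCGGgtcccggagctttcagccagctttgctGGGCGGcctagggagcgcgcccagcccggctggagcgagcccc
The printed parts held 4 matches for RET and 3 for CCDC6, and the full 250 bases held 5 and 4. Of 35116 RefSeq promoters of that length, 42.6% held at least 1 match on either strand. TATAAA (10.7% of promoters) and CCAAT (32.0%), also searched on both strands, were not found in either window of 250 bases. The G and C content of the full windows was 79.6% for RET and 71.6% for CCDC6. RefSeq lists another RET start inside the gene, not shown here. Its window of 250 bases (chr10:43104515-43104764) held 1 GGGCGG match, with a G and C content of 58.0%.

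Depth was 15761474 to 18066559 counts, and 20630 to 22029 genes had a count in a given library. On the first principal component of the 1000 most variable genes (35.8% of the variance) the second set lay above 0 and the first set below 0. The second component (14.4%) set EV replicate 2 apart, with a score of 22.2 where the other libraries had -10.8 to 8.37. The thyroid follicular identity of the line was only partly visible. Of 8 follicular markers, 5 had a count, and their summed level was 418.7 to 521.0 CPM in OE libraries and 389.8 to 474.4 CPM in EV libraries, mostly from the transcription factor PAX8. NKX2-1, TSHR and SLC5A5 had 0 counts in every library. Of 8 C cell and neuroendocrine markers, 5 had a count, with a summed level of 1.54 to 2.80 CPM in OE libraries and 1.53 to 2.19 CPM in EV libraries, and CALCA, which encodes calcitonin, was at 0. Neural crest and glia markers (3 of 4 with a count, S100B at 0) summed to 0.222 to 0.890 CPM in OE and 0.0639 to 0.859 CPM in EV libraries. Fibroblast markers (2 of 5 with a count, COL1A2, COL3A1 and DCN at 0) summed to 4.89 to 5.76 CPM in OE and 3.74 to 5.30 CPM in EV libraries, and leukocyte and endothelial markers (5 of 6 with a count, CD3E at 0) to 0.950 to 2.33 CPM in OE and 1.01 to 2.58 CPM in EV libraries. By edgeR, DESeq2 and limma-voom 0 tested markers were called between OE and EV over both sets. PAX8 alone had an unadjusted p under 0.05, which 5.71% of all genes tested had by edgeR. PAX8 had a log2 change of 0.17 (SE 0.076), FOXE1 0.09 (SE 0.148), HHEX 0.01 (SE 0.103), SYP 0.24 (SE 0.267), PDGFRB 0.33 (SE 0.195), PECAM1 -0.60 (SE 0.343) and CD14 0.12 (SE 0.404).

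RET itself (ENSG00000165731, hg38 chromosome 10, 43077027 to 43130351, plus strand) was well covered and nearly level across the libraries. OE replicates 1 to 5 held 736, 735, 724, 781 and 767 RET counts, and EV replicates 1 to 5 held 752, 696, 732, 865 and 645. As CPM, counts scaled to library size and by TMM factors, RET averaged 43.0 ± 2.38 in OE and 44.5 ± 3.22 in EV libraries (SD, n = 5 each), and the groups overlapped. Over both sets the log2 change, OE over EV, was -0.05 (SE 0.072, 95% interval -0.20 to 0.11, edgeR adjusted p = 0.94). On the linear scale that interval runs from 0.869 to 1.08 times the EV level. In the first set the 3 OE libraries (41.9, 40.8 and 41.3 CPM) lay below all 3 EV libraries (42.3, 44.9 and 44.3 CPM). Of 14340 genes tested there, 7.86% had all OE libraries below all EV libraries and 9.15% had them all above, and the log2 change of RET was -0.09 (SE 0.088, edgeR adjusted p = 0.803). In the second set the OE libraries, at 46.4 and 44.6 CPM, lay between the EV libraries, at 49.5 and 41.2 CPM, with a log2 change of 0.0061 (SE 0.119). Over both sets the RET means of OE and EV thus differed by less than the SD of either group, which includes any shift between the sets. In bulk RNA fewer expressing cells and less RNA per cell cannot be told apart.

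CCDC6 (ENSG00000108091, hg38 chromosome 10, 59788763 to 59906656, minus strand) had far fewer counts than RET. There were 56, 73, 74, 86 and 72 in OE replicates 1 to 5 and 63, 37, 70, 92 and 76 in EV replicates 1 to 5. EV replicate 2, which also stood apart on the second principal component, was the lowest of the 10. The mean was 4.15 ± 0.680 CPM in OE and 4.06 ± 1.14 CPM in EV libraries (SD, n = 5 each). The log2 change was 0.05 over both sets (SE 0.183, 95% interval -0.34 to 0.44, edgeR adjusted p = 0.981), 0.16 in the first set (SE 0.26) and -0.12 in the second set (SE 0.245). Without EV replicate 2 the first-set value was -0.03, so its sign rests on that library.

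**Figure D1:**
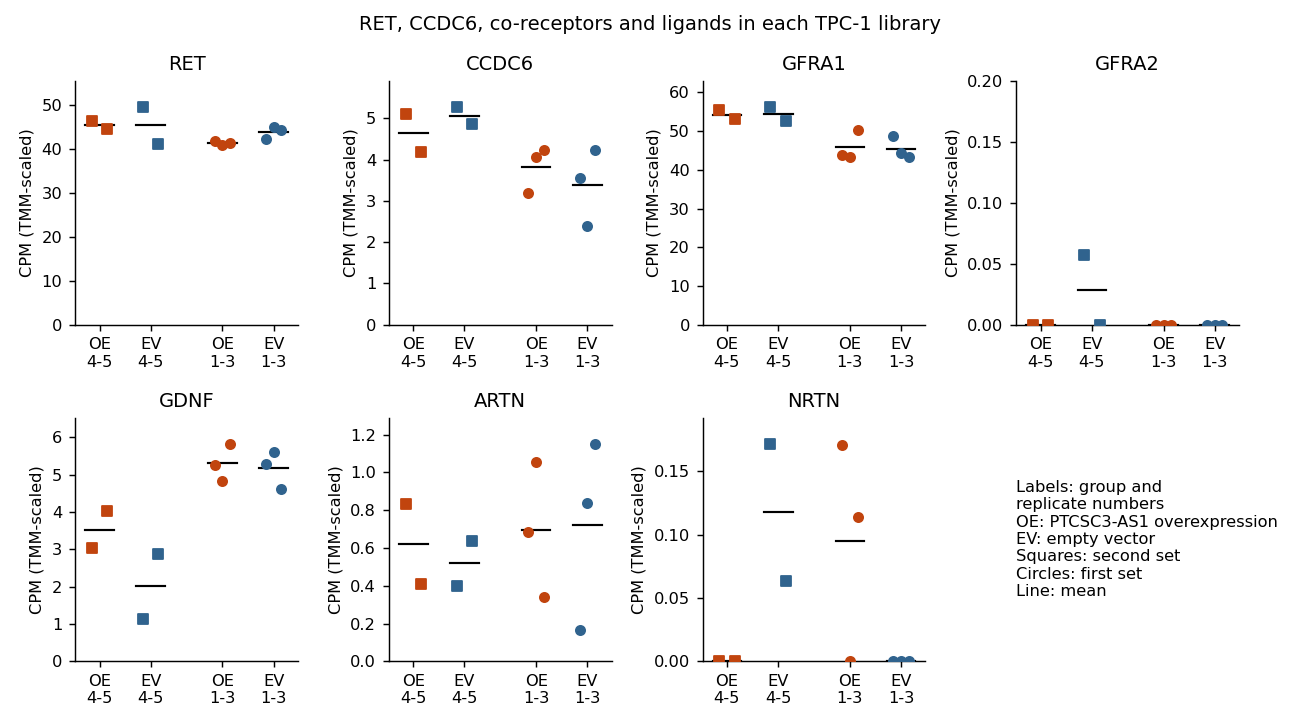
Levels of the 7 genes in each library, as TMM-scaled CPM on linear axes that start at 0. Points are libraries (orange OE, blue EV, squares second set, circles first set) and lines are means. RET and CCDC6 overlap between OE and EV over both sets, GFRA1 is higher and GDNF lower in all second-set libraries than in all first-set libraries, and GFRA2 and NRTN are at 0 in most libraries.

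Of the co-receptors, GFRA1 was abundant and GFRA2 nearly absent. GFRA1 (ENSG00000151892, hg38 chromosome 10, 116056925 to 116273467, minus strand) held 770, 782, 882, 932 and 914 counts in OE replicates 1 to 5, and 866, 685, 717, 981 and 822 counts in EV replicates 1 to 5. Its mean was 49.2 ± 5.39 CPM in OE and 49.0 ± 5.43 CPM in EV libraries (SD, n = 5 each), with a log2 change of 0.0068 (SE 0.072, 95% interval -0.15 to 0.16, edgeR adjusted p = 0.991). GFRA2 (ENSG00000168546, chromosome 8, 21690403 to 21812357, minus strand) had 1 count, in EV replicate 4, and 0 counts in the other 9 libraries. It did not pass the filter on low counts and was not tested. A count of 0 allows up to 3 counts, or 0.167 to 0.194 CPM depending on the library, which covers counting error only.

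Of the 3 ligands, GDNF was the one with counts of 20 or more in every library. GDNF (ENSG00000168621, hg38 chromosome 5, 37812677 to 37839686, minus strand) held 92, 87, 102, 51 and 69 counts in OE replicates 1 to 5, and 94, 87, 76, 20 and 45 counts in EV replicates 1 to 5. Its mean was 4.59 ± 1.09 CPM in OE and 3.91 ± 1.87 CPM in EV libraries (SD, n = 5 each), and the groups overlapped. The log2 change was 0.31 over both sets (SE 0.228, 95% interval -0.18 to 0.80, edgeR adjusted p = 0.88) and 0.03 in the first set (SE 0.177). In the second set both OE libraries (3.03 and 4.01 CPM) lay above both EV libraries (1.15 and 2.87 CPM), an order that 12.3% of 14419 genes tested there shared. The second-set log2 change was 0.82 (SE 0.467, edgeR adjusted p = 1), and it was 0.29 to 1.62 when 1 of its 4 libraries was left out. In the authors' deposited table the log2 fold change of GDNF was 1.40 for OE replicate 4 against EV replicate 4 (p = 0.0163, adjusted p = 1) and 0.49 for OE replicate 5 against EV replicate 5 (p = 0.349, adjusted p = 1). The change in the second set differed from that in the first set by 0.79 (SE 0.446, edgeR interaction term, adjusted p = 1). Both values rest much on the second-set libraries. The change over both sets was 0.0985 without EV replicate 4 and 0.18 without OE replicate 5, and the interaction was 0.26 without EV replicate 4 and 1.60 without EV replicate 5. The antisense gene GDNF-AS1 overlaps GDNF and held 3 to 26 counts per library, and since the sources used here do not give strand use in the counting, reads of the pair cannot be told apart.

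ARTN and NRTN were at the edge of detection. ARTN (ENSG00000117407, hg38 chromosome 1, 43933320 to 43937241, plus strand) had 12, 19, 6, 14 and 7 counts in OE replicates 1 to 5, and 3, 13, 19, 7 and 10 counts in EV replicates 1 to 5. The groups overlapped, and the log2 change of 0.07 had a 95% interval of -0.93 to 1.08 (SE 0.469, edgeR adjusted p = 0.986). The counts are compatible with any change inside that interval. NRTN (ENSG00000171119, hg38 chromosome 19, 5823802 to 5828324, plus strand) had counts in 4 of 10 libraries. These were 3 in OE replicate 1, 2 in OE replicate 3, 3 in EV replicate 4 and 1 in EV replicate 5, all at or below the floor of 3 counts, and NRTN was not tested.

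Between OE and EV, 0 of the 5 tested genes passed an adjusted p of 0.05 over both sets, in either set alone or in the interaction, by edgeR, DESeq2 or limma-voom, and 0 had an unadjusted p under 0.05 in any of these. Over all genes edgeR called 0% of 14217 over both sets, with 812 at an unadjusted p under 0.05 (DESeq2 called 6 and limma-voom 0). In the first set it called 0.0349% of 14340 (NEAT1, KLF10, TXNIP, NR1D1 and ATF3, named after their values were seen). Without EV replicate 2 the first set had 1578 calls, and 0 of the 5 genes was among them. In the second set it called 0% of 14419, with 158 at an unadjusted p under 0.05 (DESeq2 called 1 and limma-voom 0), and in the interaction 0.00703% of 14217 (ATF3, likewise). Having 0 calls among these genes is therefore no feature particular to them.

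Between the sets, a ligand and a co-receptor moved in opposite directions. GDNF fell in the second set, with 1.15 to 4.01 CPM, against 4.60 to 5.82 CPM in the first set. The log2 change, second over first set, was -0.95 (SE 0.24, 95% interval -1.46 to -0.43, edgeR adjusted p = 0.0151), a fold of 0.518, and it stayed past the threshold in all 10 fits that left out 1 library (-1.15 to -0.68). GFRA1 rose in the second set, with 52.5 to 56.2 CPM, against 43.4 to 50.3 CPM in the first set. Its log2 change was 0.25 (SE 0.073, 95% interval 0.09 to 0.41, edgeR adjusted p = 0.0298), and the call was lost in 7 of the 10 fits that left out 1 library. Those were the fits without EV replicate 3 (0.23), EV replicate 4 (0.23), EV replicate 5 (0.26), OE replicate 1 (0.23), OE replicate 2 (0.23), OE replicate 4 (0.23) or OE replicate 5 (0.26), with adjusted p of 0.0534 to 0.105.

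The other 3 tested genes were not called between the sets. CCDC6 averaged 4.85 ± 0.475 CPM in the second set (SD, n = 4) and 3.61 ± 0.727 CPM in the first set (SD, n = 6), a log2 change of 0.43 (SE 0.185, edgeR adjusted p = 0.124). RET had 0.09 (SE 0.073, edgeR adjusted p = 0.407) and ARTN -0.31 (SE 0.485, edgeR adjusted p = 0.704). Over all 14217 genes tested between the sets, edgeR called 18.4%, 9.27% higher and 9.17% lower in the second set, so 2 calls among 5 genes stand beside a high background. By position, 8.68% of all genes had every second-set library above every first-set library, as GFRA1 did, and 7.88% had them all below, as GDNF did. Both sets held OE and EV libraries, and the fit had a term for the group. Day, vector preparation, culture or run cannot be told apart here as sources of a difference between the sets.

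**Figure D2:**
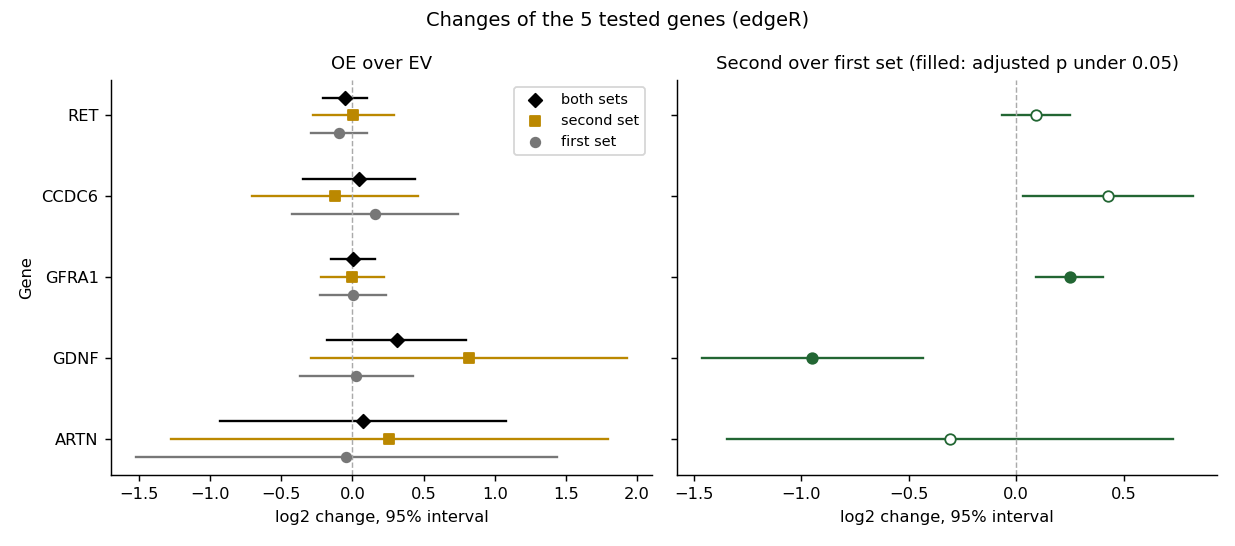
Log2 changes of the 5 tested genes with 95% intervals from edgeR. The left panel gives OE over EV (both sets, second set and first set), where all intervals include 0. The right panel gives the second over the first set, where GFRA1 (0.25) and GDNF (-0.95) are past the threshold.

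Compared per kilobase of the deposited gene length, the levels spanned a wide range. RET stood highest at 6.33 ± 0.402 CPM per kilobase (SD, n = 10), above 79.3% of the 30327 genes with a count. GFRA1 followed at 5.08 ± 0.527 CPM per kilobase, and its highest library (5.81) was below the lowest of RET (5.90). GDNF came next at 0.994 ± 0.348 CPM per kilobase and did not reach GFRA1 in any library. CCDC6, at 0.559 ± 0.121 CPM per kilobase, overlapped with GDNF above it and with ARTN, at 0.245 ± 0.121 CPM per kilobase, below it. NRTN (mean 0.0470 CPM per kilobase) and GFRA2 (mean 0.00100 CPM per kilobase) overlapped at 0. RET and GFRA1 thus lay above GDNF, ARTN and NRTN in every library.

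The ratio of RET to CCDC6 used the deposited length of each whole gene, whereas the fusion keeps CCDC6 exon 1 and RET exon 12 to the last. It therefore does not compare the output of both promoters. In counts per kilobase, this ratio was above 1 in every library. It was 14.0, 10.7, 10.4, 9.65 and 11.3 in OE replicates 1 to 5, and 12.7, 19.99, 11.1, 9.99 and 9.02 in EV replicates 1 to 5. The highest value, that of EV replicate 2, goes with its low CCDC6 count of 37. The mean was 11.2 ± 1.66 in OE and 12.6 ± 4.37 in EV libraries (SD, n = 5 each), and the log2 difference, OE minus EV, was -0.12 (two-sided exact permutation test within sets, p = 0.65, smallest possible 0.0167). Without EV replicate 2 it was 0.044, so its direction rests on that library. In the first set it was -0.29 (exact p = 0.5, smallest possible 0.1) and in the second set 0.14 (exact p = 0.667, smallest possible 0.333). Over the 6 first-set libraries the log2 CPM of RET and CCDC6 gave Pearson's r of -0.54 (exact permutation p = 0.283) and Spearman's rho of -0.31 (exact permutation p = 0.564). Without the 2 libraries farthest from the median of CCDC6, r was 0.11, so its sign rests on those libraries. By total count, without TMM factors, the 6 libraries gave r of -0.12 (exact permutation p = 0.708) and rho of -0.029. The size of r thus also depends on the scaling. No correlation was taken over both sets, which form separate clusters.

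**Figure D3:**
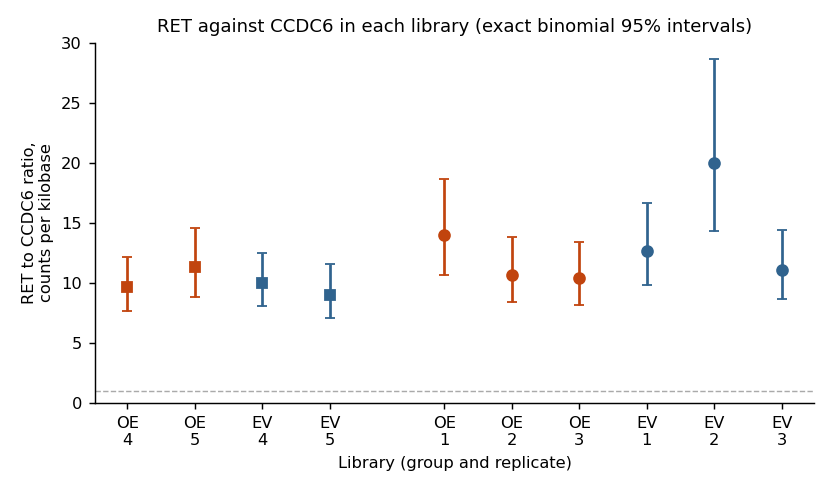
Ratio of RET to CCDC6 counts per kilobase in each library on a linear axis that starts at 0, with exact binomial 95% intervals that cover counting error only. Orange is OE, blue is EV, squares are the second set and circles the first set. All 10 values (9.02 to 19.99) lie above the dashed line at 1.

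Other genes known as fusion partners of RET in thyroid carcinoma gave a scale for CCDC6, each by its deposited gene length. Any fusion reads in CCDC6 exon 1 were divided by that whole length, so the CCDC6 level does not measure the fusion. All 14 listed partners had higher means per kilobase than CCDC6, from 3.22 CPM per kilobase for HOOK3, a microtubule adaptor, to 78.1 CPM per kilobase for NCOA4, the ferritin autophagy receptor that is the partner in RET/PTC3. Between OE and EV, 0 of the 14 were called by edgeR, DESeq2 or limma-voom and 0 had an unadjusted p under 0.05 over both sets. Their median log2 change was -0.03, against -0.0028 for all tested genes. The lowest p-values belonged to NCOA4 (-0.10, SE 0.066), TBL1XR1, part of a co-repressor complex (-0.09, SE 0.064), PRKAR1A, a regulatory subunit of protein kinase A (-0.08, SE 0.059), and KTN1, a kinesin receptor (-0.10, SE 0.085). Between the sets 2 of 14 rose in the second set (NCOA4, 0.23, and TRIM27, 0.22) and 3 fell (TBL1XR1, -0.32, PRKAR1A, -0.30, and KTN1, -0.27), where 18.4% of all genes tested were called (9.27% higher, 9.17% lower). Of the 10 fits that left out 1 library, NCOA4 lost that call in 6 (values 0.16 to 0.26), TRIM27 in 6 (0.20 to 0.23) and KTN1 in 7 (-0.32 to -0.18). The fits without EV replicate 4, OE replicate 2 or OE replicate 4 ended all 3 calls.

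**Figure D4:**
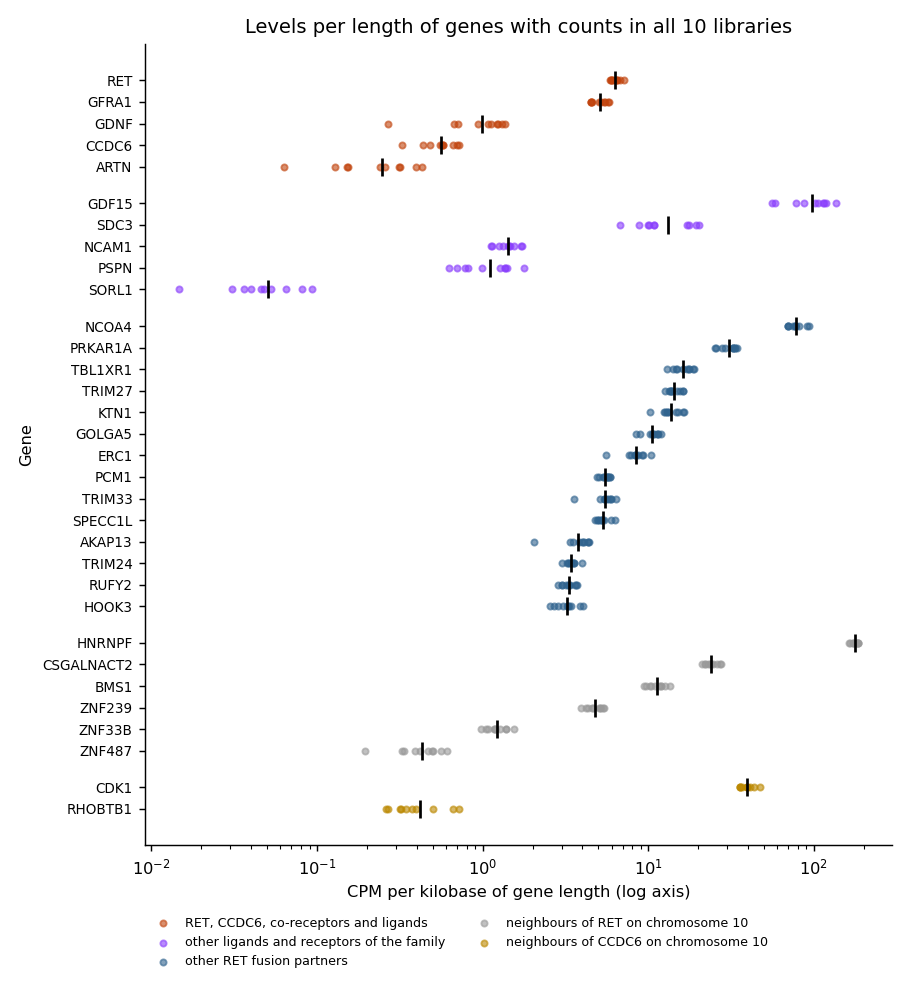
Mean level per kilobase of gene length (black mark) and the 10 libraries (points) on a log axis, for genes with a count in every library. Of the 7 genes followed, RET (6.33) lies in the middle of the fusion partners and GFRA1 (5.08) among the lower ones, while GDNF, CCDC6 and ARTN lie below all 14 fusion partners.

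Among the other ligands and receptors of the family, the co-receptor GFRA3 had 1 count in all libraries together, and GFRA4 and GFRAL had 0. The ligands of these receptors were present in part. Persephin (PSPN), the ligand of GFRA4, held 41 to 108 counts. GDF15, the ligand of GFRAL and a stress-induced cytokine, averaged 97.0 ± 26.6 CPM per kilobase (SD, n = 10). SDC3, a heparan sulphate proteoglycan that binds GDNF, averaged 13.2 ± 4.90 CPM per kilobase, and NCAM1, a signalling partner of GDNF with GFRA1, averaged 1.41 ± 0.208 CPM per kilobase.

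Of the 8 genes of that list, 5 were tested between OE and EV. By edgeR, DESeq2 and limma-voom 0 were called and 0 had an unadjusted p under 0.05 over both sets, with a median log2 change of 0.0043 (all tested genes -0.0028). SDC3 had 0.18 (SE 0.102), NCAM1 0.03 (SE 0.12), the sorting receptor SORL1 -0.06 (SE 0.361) and GDF15 -0.0061 (SE 0.12). Between the sets SDC3 rose in the second set (0.97, SE 0.103, edgeR adjusted p = 6.55e-05), with 121.5 to 143.2 CPM in the second set and 47.9 to 76.4 CPM in the first set. PSPN fell (-0.89, SE 0.187, edgeR adjusted p = 0.00565), with 2.43 to 3.20 CPM in the second set and 3.88 to 6.97 CPM in the first set. PSPN overlaps ALKBH7 on the opposite strand (288 to 523 counts), so its reads are uncertain. GDF15 fell as well (-0.72, SE 0.125, edgeR adjusted p = 0.0017), with 116.9 to 181.8 CPM in the second set and 213.2 to 285.1 CPM in the first set. These 3 calls among 5 genes stand beside 18.4% of all genes tested (9.27% higher, 9.17% lower).

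Downstream of RET, 24 of 27 listed adaptors and effectors were tested. Over both sets 0 were called by edgeR, DESeq2 or limma-voom, with 2 at an unadjusted p under 0.05 by each tool. By edgeR 5.71% of all genes tested had such a p. Of these genes 20 lay above 0, and the median log2 change was 0.04, against -0.0028 for all tested genes. The second set alone had 11 above 0 and 13 below, with a median of -0.0050, against 19 above, 5 below and a median of 0.04 in the first set alone. SRC, a tyrosine kinase that binds RET, had 0.24 (SE 0.086, edgeR adjusted p = 0.847). GRB2, the adaptor that links receptors to RAS activation, had 0.14 (SE 0.063). SHC1 and FRS2, docking proteins that compete for a RET tyrosine, had 0.12 (SE 0.096) and -0.21 (SE 0.099). Between the sets 2 of 24 rose in the second set, PLCG1, which encodes phospholipase C gamma (0.38, SE 0.09, edgeR adjusted p = 0.01), and PDLIM7, a RET-binding scaffold (0.31, SE 0.085, edgeR adjusted p = 0.0235). PIK3CA, a catalytic subunit of phosphatidylinositol 3-kinase, fell (-0.33, SE 0.105, edgeR adjusted p = 0.0402). These 3 calls among 24 genes are no more frequent than the 18.4% called among all genes tested. The PIK3CA call ended in 8 of 10 fits that left out 1 library (all but those without EV replicate 2 or 4). The PDLIM7 call ended without EV replicate 4 (0.27), OE replicate 2 (0.28) or OE replicate 4 (0.26).

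Of 10 listed negative regulators of RET or its pathway, 9 were tested. Between OE and EV over both sets 0 were called and 0 had an unadjusted p under 0.05 by any of the 3 tools, with a median log2 change of 0.0033. CBLB, a ubiquitin ligase of receptor kinases, had -0.37 (SE 0.186, edgeR adjusted p = 0.847). CD2AP, an adaptor of that ligase family, had -0.05 (SE 0.081) and PTPRF, a receptor phosphatase that acts on RET, 0.06 (SE 0.123). The 3 listed Sprouty genes, SPRY1, SPRY2 and SPRY4, are feedback inhibitors of receptor kinase signalling. All 3 fell in the second set, where 9.17% of all genes tested were called lower. SPRY1 had 2.63 to 4.41 CPM in the second set and 7.29 to 8.94 CPM in the first set (-1.27, SE 0.165, edgeR adjusted p = 0.000289). SPRY2 had -0.46 (SE 0.071, edgeR adjusted p = 0.00082) and SPRY4 -0.41 (SE 0.076, edgeR adjusted p = 0.00271), and for both no second-set library reached the first set, as for 7.88% of all genes tested. The median of the 9 regulators between the sets was 0.09, opposite in sign to the Sprouty genes. The 3 Sprouty calls held in all fits that left out 1 library.

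**Figure D5:**
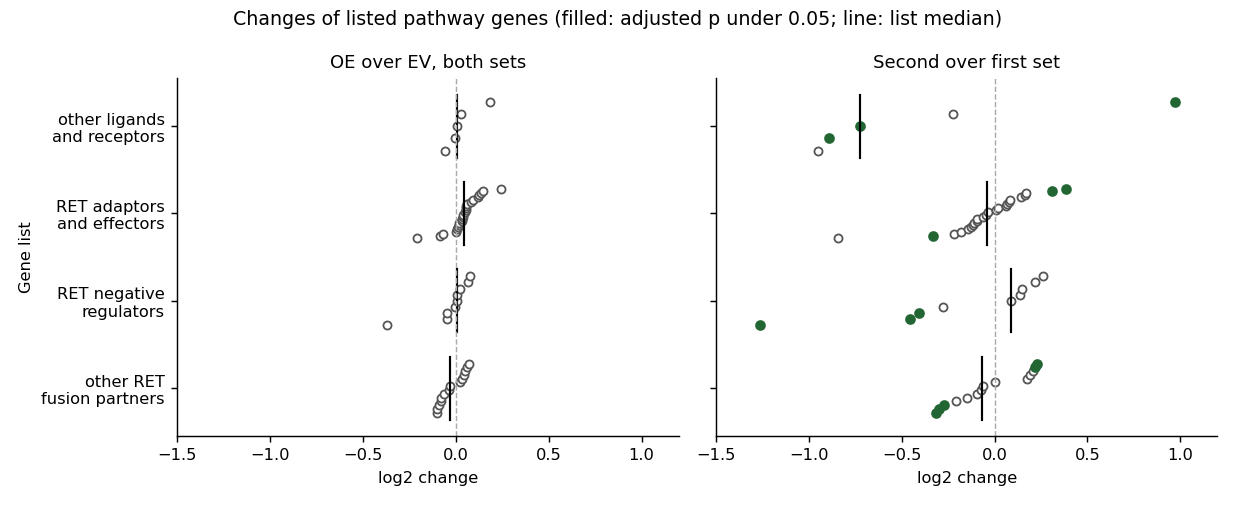
Log2 changes of tested pathway genes (points) with each list's median (line) on linear axes, OE over EV at left and second over first set at right. Filled points passed an edgeR adjusted p of 0.05, which 0 genes did at left. At right the lowest filled point is SPRY1 (-1.27) and the highest is SDC3 (0.97).

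The neighbourhood of RET on chromosome 10 held both silent and active genes. RASGEF1A, 64.2 kb from RET, had 2 counts in all, whereas CSGALNACT2, 8.14 kb from RET, had 1230 to 1796 counts per library. Of 8 neighbours, 6 were tested between OE and EV, 0 were called and 0 had an unadjusted p under 0.05 by any of the 3 tools, and the median log2 change was -0.10. HNRNPF had 0.08 (SE 0.06), ZNF239 -0.13 (SE 0.112), ZNF33B -0.16 (SE 0.134) and CSGALNACT2 -0.08 (SE 0.066). Between the sets, again beside 18.4% of all genes tested, BMS1 rose in the second set (0.25, edgeR adjusted p = 0.0449) and CSGALNACT2 fell (-0.21, edgeR adjusted p = 0.0443), and each lost its call in 8 of 10 fits that left out 1 library. For BMS1 (0.19 to 0.29) these were all but the fits without EV replicate 2 or 3, and for CSGALNACT2 (-0.25 to -0.18) all but those without EV replicate 2 or OE replicate 5. Around CCDC6, 2 of 8 neighbours were tested. CDK1, the mitotic kinase 871.7 kb away, had 0.0092 (SE 0.085) and RHOBTB1 -0.05 (SE 0.238), both OE over EV. RHOBTB1 rose in the second set (0.86, SE 0.238, edgeR adjusted p = 0.023), a call lost without EV replicate 4 (0.70), OE replicate 1 (0.80) or OE replicate 5 (0.75).

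The genes most like each of the 5 tested genes were ranked by Pearson's r of log2 CPM over the 10 libraries after each set's mean was removed, among 14216 other genes. They are given as a description with no test, since all points share depth and libraries. Picking the highest 5 of 14216 values over 10 libraries yields high r by selection alone, so the values are no evidence of a link. No library was left out here, so how far these values rest on EV replicate 2, the lowest in CCDC6, was not tested. For RET these were CD47 (0.939), UPRT (0.939), ABHD5 (0.917), MAP3K14 (0.906) and EAF2 (0.902). For CCDC6 they were STX17 (0.97), DHX8 (0.967), EFCAB14 (0.966), PAK3 (0.964) and UBAP2L (0.954). GFRA1 was most like MAGI2-AS3 (0.899), SNX18 (0.881), GLIPR1 (0.881), AC009403.1 (0.872) and RAB9B (0.864). The closest to GDNF were RPSAP52 (0.943), HSPA1B (0.934), LTBP1 (0.929), ARIH2OS (0.894) and MANBA (0.894). ARTN, with few counts, was most like BCO1 (0.926), KRT33B (0.909), RNF146 (0.894), UBE2MP1 (0.886) and DZIP3 (0.886). None of the 5 was among the most like genes of another, which lists of 5 among 14216 genes make likely for any genes.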

How the data were processed

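RNA of 10 TPC-1 libraries was measured by RNA-seq (TRIzol extraction, DNase I, NEBNext Ultra RNA kit, per the labels' protocols). The submitters' processing notes name HISAT2 2.0.5, featureCounts 1.5.0-p3, fastp, CASAVA 1.8 and DESeq2 1.20.0 beside the build hg38, without roles or order. No annotation release is given there. The 2 tables deposited by the authors hold, per the file headers, raw counts for each gene and a gene length in bases, and the second table also a log2 fold change and p-value for single pairs of libraries. The 14 other deposited per-library columns were not used.

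Groups follow the labels. The main test was the edgeR 4.0.16 quasi-likelihood test in R 4.3.3 (filterByExpr, TMM, set as a term, Benjamini-Hochberg adjusted p under 0.05 over all genes tested). Each set was also fitted alone, with an interaction term and the set term tested in further fits. The fits were tested on simulated data. Those data held large changes only, so they do not cover changes as small as most given here. CPM values are TMM-scaled, and each standard error (SE) is derived from the test statistic. At 15761474 to 18066559 counts per library, the floor of 3 counts covers counting error only. Alternatives were DESeq2 1.42.0, limma 3.58.1 (voom), other scaling, no filter, no set term, a replicate block and leaving out each library. The text names the 7 genes, every listed gene past the threshold in any comparison and, between OE and EV over both sets, up to 4 genes per list with the lowest p. The genes and lists were chosen with earlier results of these data known. Exons and positions are from GENCODE 29, and upstream sequences from RefSeq.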

Additional observations from a re-analysis of the deposited data

Results flagged for a closer look

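The GFRA2 level of EV replicate 4, 0.0573 CPM from 1 count, stood apart from the other 4 EV libraries, all at 0. Of 15 groups of 5 libraries checked this was the 1 that stood apart. With 4 values at 0 any single read stands apart in this way, so the usual rate of chance flags, about 1 in 20 groups, does not hold here. The value is below the floor of 3 counts.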

How the results depend on the processing

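Counts of genes called moved with tool and filter. Over both sets, 0 calls became 6 with DESeq2 and 23 without the low-count filter. In the first set, 5 calls became 76 with DESeq2, 90 without the filter and 1 with the replicate block. In the second set, 0 became 1, 12 and 71, in that order of settings, and for the interaction 1 became 9, 28 and 3. Leaving out 1 library gave 0 to 1578 calls in the first set (1578 without EV replicate 2, 0 or 1 otherwise), 0 to 1 in the second set (1 without EV replicate 5), 0 to 7 for the interaction (7 without EV replicate 2, 0 when OE replicate 1, 2 or 4 or EV replicate 4 or 5 was left out) and 1312 to 3850 between the sets (1312 without EV replicate 4, 1719 without OE replicate 4). Same-numbered libraries correlated in their deviations from the mean of group and set at -0.114, 0.00351 and 0.16 for replicates 1 to 3. In the second set the value was 0.314 for replicates 4 and 5 alike. With 2 libraries per group their deviations mirror each other, so this is a single observation. In the first set only replicate 3 correlated best with its own number. The labels do not say what joins a pair, so the numbers were not taken to pair libraries.

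Signs turned for small changes. ARTN in the first set was 0.20 with limma-voom and 0.034 with the block, and its interaction -0.0051 with limma-voom. GFRA1 in the second set was -0.0019 with other size factors, -0.0019 with DESeq2 and -0.00069 with limma-voom. Leaving out 1 library gave, over both sets, -0.066 to 0.12 for CCDC6, -0.036 to 0.032 for GFRA1, -0.21 to 0.39 for ARTN, -0.0604 to 0.0938 for NCAM1, -0.27 to 0.14 for SORL1, -0.13 to 0.072 for GDF15, -0.11 to 0.0048 for CD2AP, -0.049 to 0.13 for PTPRF, -0.0087 to 0.18 for SPRY1, -0.20 to 0.081 for RHOBTB1, -0.035 to 0.086 for CDK1, -0.038 to 0.19 for FOXE1, -0.045 to 0.085 for HHEX and -0.17 to 0.43 for CD14. In the first set it gave -0.029 to 0.35 for CCDC6, -0.063 to 0.061 for GFRA1, -0.045 to 0.093 for GDNF and -0.52 to 0.49 for ARTN. In the second set it gave -0.12 to 0.14 for RET, -0.27 to 0.013 for CCDC6, -0.049 to 0.048 for GFRA1 and -0.34 to 0.68 for ARTN. For the interaction it gave -0.022 to 0.24 for RET, -0.058 to 0.067 for GFRA1 and -0.29 to 0.78 for ARTN. The RET to CCDC6 ratio gave -0.19 to 0.044, and the correlation of RET and CCDC6 was 0.11 without 2 libraries. By total count that correlation kept its sign but was -0.12. Without the filter, GFRA1 (0.25, adjusted p = 0.0926), NCOA4, TRIM27, BMS1 and CSGALNACT2 lost their calls between the sets. The cause of these shifts was not tested. Depth limits ARTN, NRTN and GFRA2, which reached 10 counts in 6, 0 and 0 of 10 libraries.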
